A study of Homo sapiens with 18 samples.

Results

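The genes described here are 10 subunits of the Polycomb repressive complexes, namely EZH2, EZH1, EED, SUZ12 and JARID2 of Polycomb repressive complex 2 (PRC2) and RING1, RNF2, BMI1, CBX2 and CBX7 of Polycomb repressive complex 1 (PRC1). They were chosen by name, as the rows of the deposited count table with these gene symbols, and all 10 were found among its 25296 genes. Each symbol had 1 row and all 10 members passed the filter on low counts, which left 18226 genes to test. They were measured in U2OS, an established human osteosarcoma cell line, in derivatives that overexpress DNMT3A, a DNA methyltransferase that is mutated at a recurrent site in acute myeloid leukaemia.

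The 6 groups came from 3 lines. The EV line carried the MigR1 empty vector, the WT line overexpressed wild-type DNMT3A, and the MUT line overexpressed DNMT3A with a mutation that the series text gives as R882C and the sample labels as R882H. All lines are U2OS, and the EV line, which carries no introduced DNMT3A, expressed its own DNMT3A. Each line was sampled without drug and after 24 h with 10 µM cytarabine (Ara-C), a nucleoside drug against leukaemia whose incorporation into DNA stalls replication. The cells without drug are labelled untreated, and the series text calls them a vehicle control. Each group had 3 libraries, which the labels describe as biological triplicates of plated cells. Whether a line is a clone or a pool, and which promoter drives DNMT3A, is not given in the sources used here.

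Library totals ran from 15.4 to 21.9 M estimated counts. DNMT3A checked the labels. It stood at 26.9, 27.5 and 26.2 TMM-scaled counts per M (CPM) in the untreated EV libraries, at 131, 129 and 139 CPM in untreated WT, and at 499.7, 615 and 254 CPM in untreated MUT. The row does not separate the cells' own transcript from the introduced transcript. Untreated MUT was the most variable group, with a biological coefficient of variation of 0.214 against 0.0397 in untreated WT and 0.0398 in untreated EV, and its replicate 3 had the low DNMT3A value. Of 12 mesenchymal and osteoblast markers, 9 were in the table, and their summed level was 2514 to 3421 counts per M. Summed marker levels here and below are per M of each library's total, without TMM factors. VIM and SPARC made up most of that sum, whereas SP7 and IBSP had no row and BGLAP reached at most 7.77 counts. Epithelial markers, mostly KRT8 and KRT18, summed to 488 to 862 counts per M. Haematopoietic markers summed to 1.53 to 10.4 and endothelial markers to 1.10 to 11.5 counts per M.

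Polycomb complexes keep developmental genes silent through marks on histones. PRC2 places methyl groups on lysine 27 of histone H3 through its catalytic subunit, EZH2 or EZH1, held together with the scaffold SUZ12 and with EED, which binds the finished mark and stimulates the enzyme. JARID2 is an accessory subunit that helps recruit PRC2 to chromatin. PRC1 places ubiquitin on histone H2A through the RING-type ligases RING1 and RNF2 (RING1B), which pair with a PCGF protein such as BMI1, and in canonical PRC1 a CBX protein such as CBX2 or CBX7 reads the PRC2 mark. EZH2 is commonly high in dividing cells and EZH1 in resting cells, and BMI1 is known for silencing the CDKN2A locus. In U2OS that locus gave at most 3 counts of CDKN2A in any library, too few to test.

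Promoter letters are shown first for the members whose start-site windows held a motif of E2F, the family of factors that drives genes of the cell division cycle and is known to act on PRC2 genes. RefSeq windows on GRCh38.p14, running from 250 bases before to 50 after the start, were at hand for 9 of the 10 members, in 12 windows. The 8 letters searched were TTTCCCGC, TTTGGCGC, TTTCGCGC and TTTGCCGC on both strands, which do not overlap each other in the windows shown. EZH2, EZH1 and SUZ12 each held 1 match in 1 window, against 3.31% of 35114 windows of all genes. Capitals mark the match, and each stretch reads 5′ to 3′ along the gene's own strand.
EZH2, minus strand, chr7:148884283-148884311: gatggcgattgggctgccgcgTTTGGCGC
EZH1, minus strand, chr17:42745108-42745195: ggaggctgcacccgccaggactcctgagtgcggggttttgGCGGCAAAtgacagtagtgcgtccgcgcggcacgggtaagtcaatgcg
SUZ12, plus strand, chr17:31936778-31936865: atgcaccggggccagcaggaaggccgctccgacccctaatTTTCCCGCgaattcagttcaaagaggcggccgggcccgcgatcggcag
The first base of the match lay at position 2 from the start in EZH2, at -115 in EZH1, where it reads on the opposite strand, and at -189 in SUZ12. A second motif, the cell cycle homology region with the letters TTTGAA or TTCGAA on either strand, was found in SUZ12 at -173 and in no other member's window, against 16.4% of all windows. These are matches of letters and no binding was measured in this series.

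Levels were compared between members as reads per kilobase of the canonical transcript per M (RPKM), averaged over all 18 libraries. BMI1 was the most abundant at 52.6 ± 7.82 RPKM (SD, n = 18), and RING1 followed at 39.2 ± 5.41 RPKM. EED, SUZ12 and CBX2 formed a middle group, at 26.9 ± 2.82, 23.4 ± 2.19 and 21.0 ± 3.00 RPKM. EZH2, RNF2 and CBX7 were lower and close together, at 9.87 ± 1.96, 9.32 ± 1.63 and 8.97 ± 2.22 RPKM. JARID2 had 6.76 ± 1.17 RPKM and EZH1 the lowest level, 2.42 ± 0.398 RPKM. Over the pooled libraries, whose SD includes the differences between groups, neighbours in this order did not differ beyond their spread for EED and SUZ12, for SUZ12 and CBX2, for EZH2, RNF2 and CBX7, and for CBX7 and JARID2. Within single groups some of these neighbours stood apart. In untreated EV, RNF2 had 12.3 ± 0.39 and CBX7 7.64 ± 0.49 RPKM (SD, n = 3), whereas in treated MUT CBX7 was the higher of the pair, at 11.8 ± 0.31 against 7.63 ± 0.30 RPKM. The order depends on the length used. With all exonic bases of a gene in place of the canonical transcript, an alternative added after the data had been seen, EED fell to 8.03 RPKM and EZH2 to 2.43 RPKM, while BMI1 and RING1 stayed on top at 42.3 and 37.6 RPKM and EZH1 last at 1.60 RPKM.

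**Figure D1:**
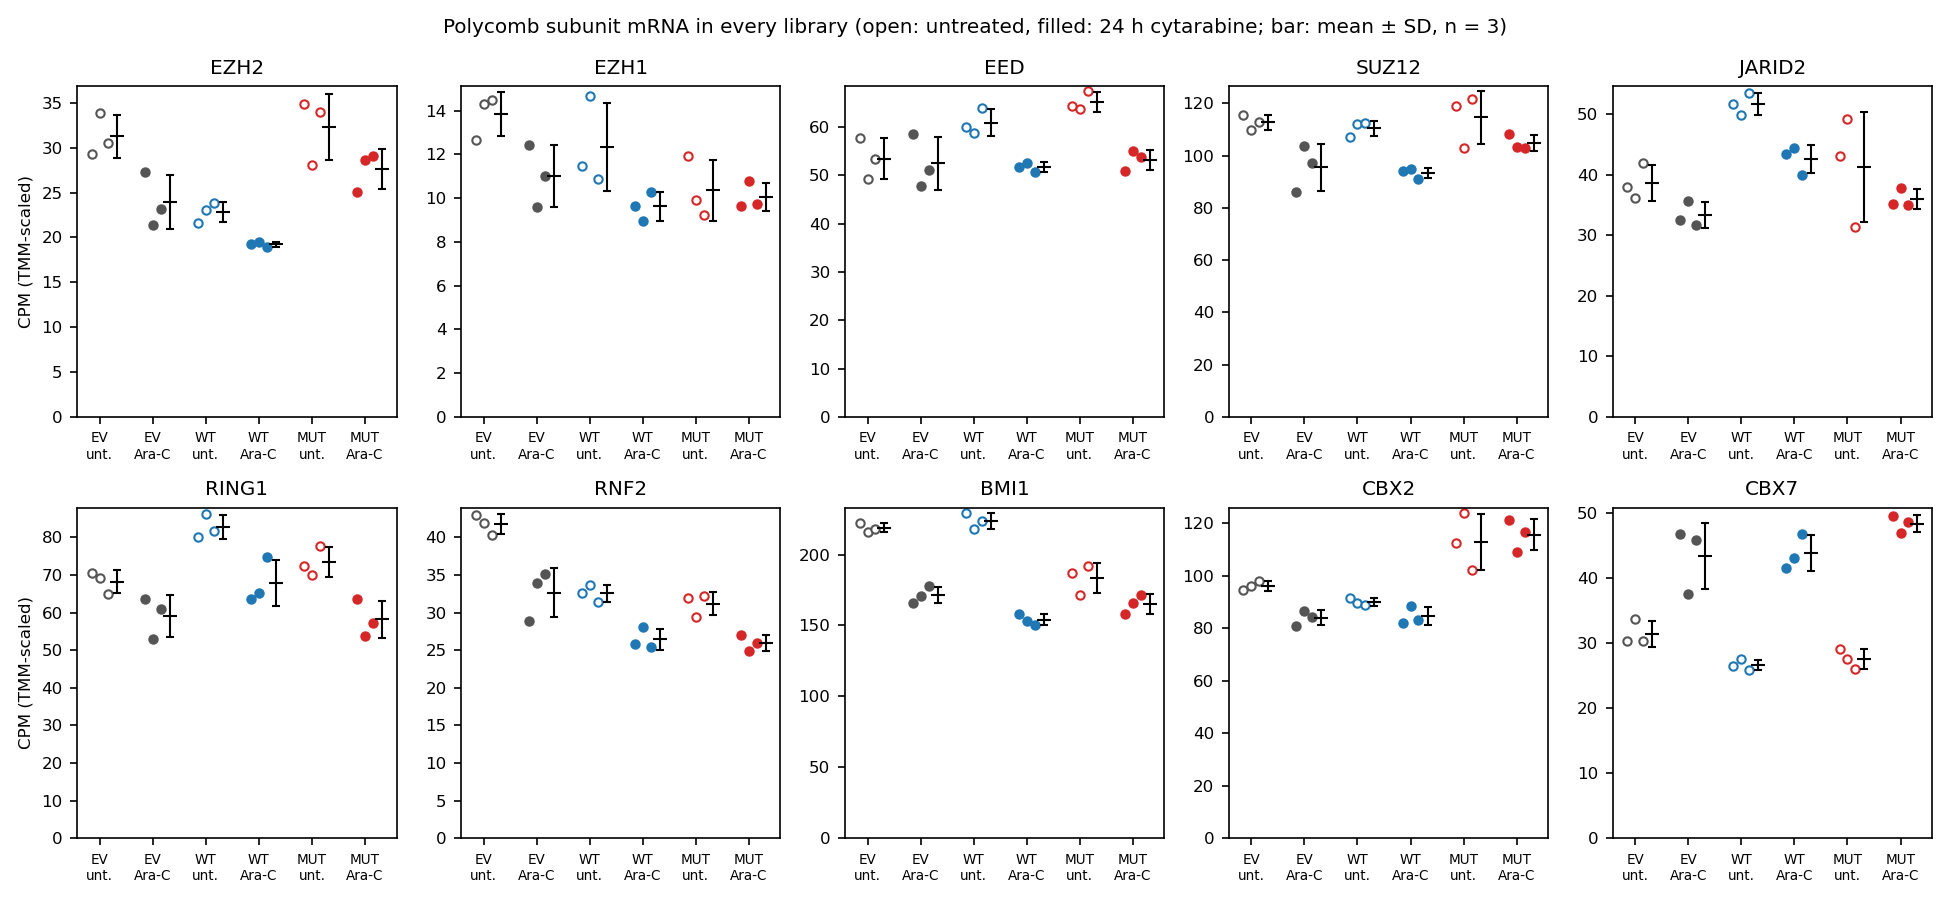
TMM-scaled counts per M of the 10 members (vertical axes, from 0) in each of the 18 libraries; open points are untreated and filled points treated libraries of EV (grey), WT (blue) and MUT (red), and bars give the mean ± SD of 3. CBX7 is higher in every treated library than in any untreated library of its line, and BMI1 and RNF2 are lower in every treated library of EV and WT.

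Cytarabine lowered 7 of the 10 members in EV and in WT and 4 in MUT, and it raised CBX7 in all 3 lines. In EV 8 of 10 members passed the threshold, an adjusted p under 0.05 in edgeR's quasi-likelihood test with Benjamini-Hochberg adjustment over all tested genes, and 7 of them fell. In WT 8 passed and 7 fell, and in MUT 5 passed and 4 fell. The drug changed much of the transcriptome, so that 49.1% of all tested genes passed in EV, 49.0% in WT and 56.3% in MUT. Genes that fell made up 22.9%, 22.7% and 25.9% of all tested genes, and genes that rose 26.1%, 26.3% and 30.4%. Among the 10037 tested genes at least as abundant as EZH1, the lowest member, genes that fell made up 37.7%, 35.5% and 39.6%, a background added after the data had been seen.

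The median log2 fold change of the 10 members was -0.23 in EV, -0.26 in WT and -0.17 in MUT. Over all tested genes it was 0.05, 0.03 and 0.05, and over those at least as abundant as EZH1 -0.11, -0.09 and -0.09. RING1, RNF2 and BMI1 fell in all 3 lines, a pattern that 16.4% of all tested genes showed, and CBX7 rose in all 3, as did 18.9% of all genes. EZH1, EED and SUZ12 fell in 2 lines, as did 6.68% of all tested genes, and EZH2, JARID2 and CBX2 in 1, as did 8.56%. The sign of the log2 fold change was negative in all 3 lines for 8 members. The share of all tested genes with such signs was not computed, so this count has no background. In EV the treated and untreated replicates did not overlap for 9 members, in WT for 10 and in MUT for 4, against 58.7%, 65.3% and 56.6% of all tested genes. In bulk RNA a change in the number of cells of a kind or phase and a change of RNA per cell cannot be told apart. As context, CDKN1A, which encodes the cell cycle inhibitor p21, rose by log2 fold changes of 1.14, 1.34 and 1.39 in EV, WT and MUT, and MKI67, a proliferation marker, had values of -0.11, -0.31 and -0.04 that did not pass. Of 12 cell cycle genes 2 rose and 3 fell in EV, with 1 and 3 in WT and 4 and 3 in MUT. Summed haematopoietic markers (6 of 8 in the table) were at 1.53 to 2.98 counts per M in untreated and 6.34 to 10.4 in treated libraries. CD34 was the largest, and CD14, SPI1 and HBB were at 10 counts or fewer. Summed mesenchymal and osteoblast markers were at 2996 to 3421 counts per M untreated and 2514 to 3034 treated. Both sums leave out the TMM factors and are not on the scale of the CPM. The factors were 0.862 to 0.961 in untreated and 1.04 to 1.11 in treated libraries. Of the 8 tested genes of that list, 4 were higher after the drug in EV, 4 in WT and 5 in MUT, with 1 lower in each line, at medians of 0.28, 0.36 and 0.51. The part of such shifts in the members' values was not tested.

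**Figure D2:**
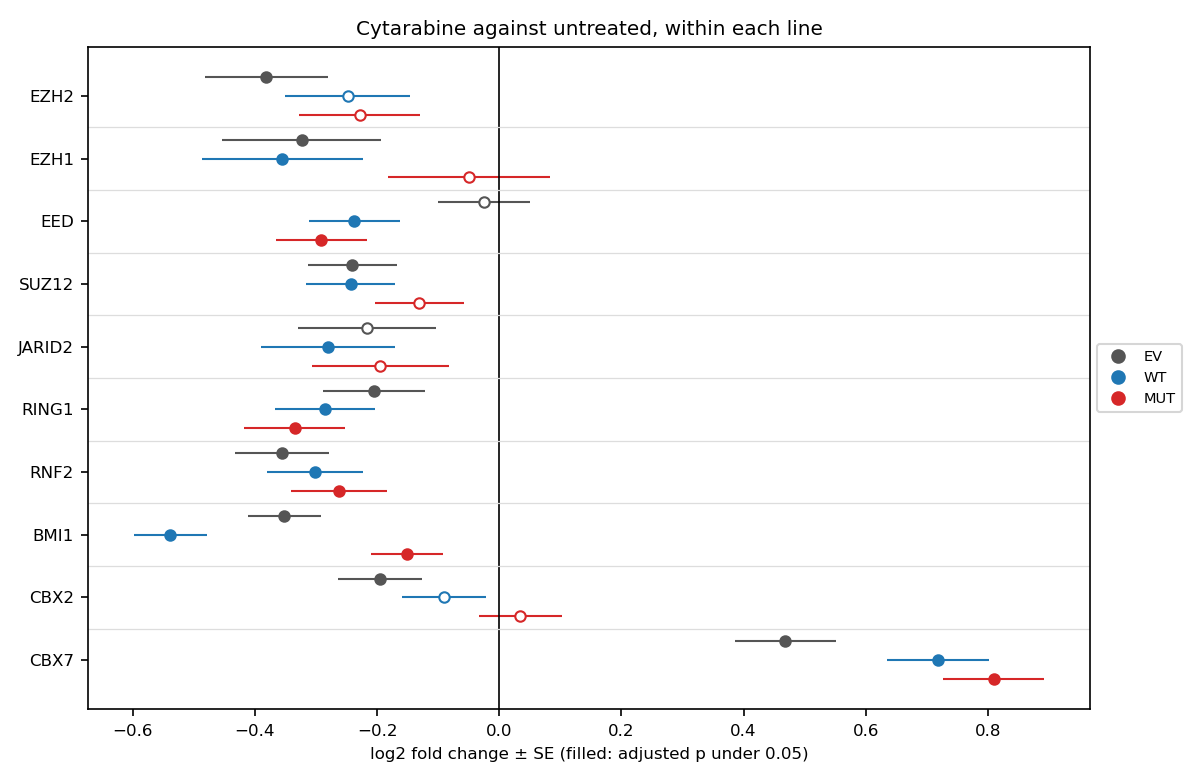
Log2 fold change of treated against untreated libraries (horizontal axis; point and bar are estimate ± SE from the edgeR fit, 3 libraries a group) for each member in EV (grey), WT (blue) and MUT (red), with filled points past an adjusted p of 0.05. CBX7 lies at 0.47 to 0.81 to the right of 0, and RING1, RNF2 and BMI1 are filled to the left of 0 in every line.

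EZH2, the main catalytic subunit of PRC2 in dividing cells, had 29.3, 33.9 and 30.6 CPM in untreated and 27.3, 21.4 and 23.2 CPM in treated EV libraries. The WT libraries gave 21.6, 23.0 and 23.9 CPM untreated and 19.3, 19.5 and 18.9 CPM treated. In MUT the untreated libraries had 34.9, 28.1 and 34.0 CPM and the treated ones 25.1, 28.7 and 29.1 CPM. Treated libraries lay below untreated ones without overlap in EV and WT and overlapped in MUT, where untreated replicate 2 was the low one. EZH2 fell in EV by 0.38 on the log2 scale (SE 0.10, adjusted p 0.00389, edgeR). The values in WT, -0.25 (SE 0.10, adjusted p 0.0523), and in MUT, -0.23 (SE 0.10, adjusted p 0.0572), lay just outside the threshold in the same edgeR test. Without untreated MUT replicate 2 the MUT value was -0.36 with an adjusted p of 0.00462, and with the scaling factors of the authors' normalized table EZH2 passed in all 3 lines. Over all fits without 1 library the adjusted p reached 0.224 in MUT and 0.149 in WT (edgeR). The authors' factors also lowered the median over all tested genes, to -0.02, -0.04 and -0.03 in EV, WT and MUT, from 0.05, 0.03 and 0.05.

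EZH1, the alternative catalytic subunit, ranged from 12.7 to 14.5 CPM in untreated EV and from 9.61 to 12.4 CPM in treated EV. In WT the ranges were 10.9 to 14.7 and 8.97 to 10.3 CPM, and in MUT 9.25 to 11.9 and 9.67 to 10.8 CPM. The groups were apart in EV and WT and overlapped in MUT. EZH1 fell in EV by 0.32 (SE 0.13, adjusted p 0.0471) and in WT by 0.36 (SE 0.13, adjusted p 0.0313) on the log2 scale in the edgeR test, and its MUT value was -0.05 (SE 0.13). The EV call is marginal. Of the 18 fits that each dropped 1 library 11 lost it, at adjusted p of up to 0.175, and the WT call in 3 of 18, without treated WT replicate 1 or 2 or untreated WT replicate 2, at adjusted p of up to 0.213.

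EED, which binds the H3 mark, fell in both DNMT3A lines and did not pass in EV. Its CPM were 49.3 to 57.7 untreated and 47.9 to 58.5 treated in EV, 58.7 to 64.0 and 50.6 to 52.6 in WT, and 63.7 to 67.5 and 51.0 to 55.0 in MUT. Treated and untreated libraries thus overlapped in EV and were apart in WT and MUT. The log2 fold change was -0.03 in EV (SE 0.08, adjusted p 0.813), -0.24 in WT (SE 0.07, adjusted p 0.0128) and -0.29 in MUT (SE 0.08, adjusted p 0.00262, edgeR). Without untreated WT replicate 3 the WT value was -0.20 with an adjusted p of 0.0643. The difference between the lines in this effect did not pass its own test, with an adjusted p of 0.234 when MUT and 0.528 when WT was set against EV in edgeR.

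SUZ12, the scaffold of PRC2, fell in EV by 0.24 (SE 0.07, adjusted p 0.00996) and in WT by 0.24 (SE 0.07, adjusted p 0.00902) on the log2 scale in edgeR. Its MUT value was -0.13 (SE 0.07, adjusted p 0.132). Levels were 109.8 to 115 CPM untreated and 85.9 to 104 CPM treated in EV, 107 to 112 and 91.1 to 94.9 CPM in WT, and 103 to 122 and 103 to 108 CPM in MUT. In MUT the overlap came from untreated replicate 2, without which the value was -0.24 with an adjusted p of 0.00502. Without treated EV replicate 1 the EV value was -0.17 with an adjusted p of 0.0656. A related pseudogene, SUZ12P1, had 122 to 226 estimated counts against 1639 to 2463 for SUZ12, and how reads that match both were assigned is not given in the sources used here.

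JARID2, the recruiting subunit, passed the threshold in WT alone, at -0.28 (SE 0.11, adjusted p 0.0420, edgeR). Untreated WT libraries had 51.7, 49.9 and 53.5 CPM and treated ones 43.5, 44.4 and 39.9 CPM, with no overlap. In EV the values were 37.9, 36.1 and 41.9 CPM untreated and 32.5, 35.7 and 31.7 CPM treated, at a log2 fold change of -0.22 (SE 0.11). The MUT line had 43.1, 49.2 and 31.4 CPM untreated and 35.1, 37.9 and 35.0 CPM treated, at -0.19 (SE 0.11). The low untreated library in MUT is replicate 3, the library with the low DNMT3A value. Without it the MUT log2 fold change was -0.39 with an adjusted p of 0.000511 (edgeR), and JARID2 also passed in EV. The lines share an estimate of spread, and each such fit also recomputes the TMM factors, the filter and the adjustment. Which of these brought the EV call was not tested. The WT call was lost in 9 of 18 fits that left out 1 library, at adjusted p of up to 0.144.

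RING1 and RNF2, the ubiquitin ligases of PRC1, fell in all 3 lines. RNF2 had 42.9, 41.9 and 40.3 CPM untreated and 28.9, 33.9 and 35.1 CPM treated in EV. In WT it had 32.7, 33.6 and 31.4 CPM against 25.8, 28.0 and 25.5 CPM, and in MUT 31.9, 29.4 and 32.2 CPM against 27.02, 24.9 and 26.0 CPM. Every treated library lay below every untreated library of its line. The log2 fold changes of RNF2 were -0.36 (SE 0.08, adjusted p 0.000782), -0.30 (SE 0.08, adjusted p 0.00334) and -0.26 (SE 0.08, adjusted p 0.00780) in EV, WT and MUT in edgeR, and no fit without 1 library lost any of them.

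RING1 ranged from 64.8 to 70.6 CPM untreated and from 52.9 to 63.5 CPM treated in EV, from 80.2 to 86.2 and 63.6 to 74.7 CPM in WT, and from 70.1 to 77.7 and 53.9 to 63.6 CPM in MUT. The groups did not overlap in any line. Its log2 fold changes were -0.21 in EV (SE 0.08, adjusted p 0.0477), -0.29 in WT (SE 0.08, adjusted p 0.00698) and -0.34 in MUT (SE 0.08, adjusted p 0.00191) in edgeR. The EV call was lost in 11 of 18 fits without 1 library, at adjusted p of up to 0.215, while the WT and MUT calls were kept in all of them.

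BMI1, the PCGF partner of the ligases and the most abundant member per kilobase, showed the widest range of cytarabine effects among the members that fell. EV libraries had 222, 216 and 218 CPM untreated and 166, 171 and 178 CPM treated. WT libraries had 229, 218 and 224 CPM against 158, 153 and 150.5 CPM, and MUT libraries 187, 171 and 192 CPM against 158, 166 and 172 CPM. The groups were far apart in EV and WT and overlapped by 1 library in MUT, whose untreated level was already low. BMI1 fell by 0.35 in EV (SE 0.06, adjusted p 6.63e-05), by 0.54 in WT (SE 0.06, adjusted p 4.60e-07) and by 0.15 in MUT (SE 0.06, adjusted p 0.0365) on the log2 scale in edgeR, or to 0.784, 0.688 and 0.900 times the untreated level. The MUT call was lost without treated MUT replicate 1 or 2 or untreated MUT replicate 1, at adjusted p of up to 0.153. A fit of the MUT libraries alone gave -0.16 with an adjusted p of 0.180. The table also lists COMMD3-BMI1, a readthrough transcript that overlaps the gene, and it held 0.0137% to 3.33% of the summed counts of both rows.

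CBX2 and CBX7 are readers of the PRC2 mark, and CBX7 rose in all 3 lines. CBX7 had 30.3, 33.7 and 30.3 CPM untreated and 46.7, 37.5 and 45.9 CPM treated in EV. In WT it had 26.5, 27.5 and 25.8 CPM against 41.5, 43.1 and 46.8 CPM, and in MUT 29.1, 27.6 and 26.0 CPM against 49.5, 47.0 and 48.6 CPM. Every treated library was above every untreated library in the study. CBX7 rose 1.38-fold in EV, 1.65-fold in WT and 1.75-fold in MUT, at log2 fold changes of 0.47 (SE 0.08, adjusted p 0.000113), 0.72 (SE 0.08, adjusted p 8.76e-07) and 0.81 (SE 0.08, adjusted p 1.29e-07) in edgeR. No fit without 1 library lost these calls. An antisense gene inside CBX7, AL031846.2, had 10.3 to 56.9 estimated counts against 439 to 1126 for CBX7, and since the use of strand in the counting is not given, reads of the pair cannot be told apart.

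CBX2 fell in EV by 0.19 on the log2 scale (SE 0.07, adjusted p 0.0242, edgeR), from 94.3, 95.99 and 97.8 CPM to 80.9, 86.6 and 84.3 CPM. WT libraries had 91.6, 89.4 and 88.7 CPM untreated and 81.9, 88.4 and 83.2 CPM treated, and MUT libraries 113, 124 and 102 CPM against 121, 109 and 116 CPM. The groups did not overlap in EV and WT and overlapped in MUT. The WT and MUT values, -0.09 and 0.03 (SE 0.07 each), did not pass. The EV call was lost without treated EV replicate 1 or 3 or untreated EV replicate 2 or 3, at adjusted p of up to 0.0814.

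The ratio of CBX2 to CBX7 per kilobase sets one reader against the other. Of the pair, CBX7 passed the test in every line and CBX2 in EV alone. In EV it was 2.72 ± 0.176 (SD, n = 3) untreated and 1.74 ± 0.273 treated, in WT 3.00 ± 0.0987 and 1.72 ± 0.125, and in MUT 3.64 ± 0.300 and 2.12 ± 0.0550. The treated libraries lay below the untreated ones in each line without overlap. The ratio of EZH2 to EZH1 barely moved with the drug, from 3.95 ± 0.241 to 3.80 ± 0.115 in EV, from 3.29 ± 0.542 to 3.49 ± 0.296 in WT and from 5.48 ± 0.818 to 4.80 ± 0.374 in MUT. These differences lie within the spread of the libraries, and the MUT libraries all had higher ratios than the libraries of the other lines. RNF2 to RING1 was 0.313 ± 0.00468 in untreated EV and 0.201 ± 0.00602 and 0.217 ± 0.00691 in untreated WT and MUT, so that EV stood above both DNMT3A lines. In treated libraries it was 0.285 ± 0.0481, 0.200 ± 0.0235 and 0.229 ± 0.0103 in the same order, and 1 treated EV library, replicate 1 at 0.232, came down to the range of MUT.

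**Figure D3:**
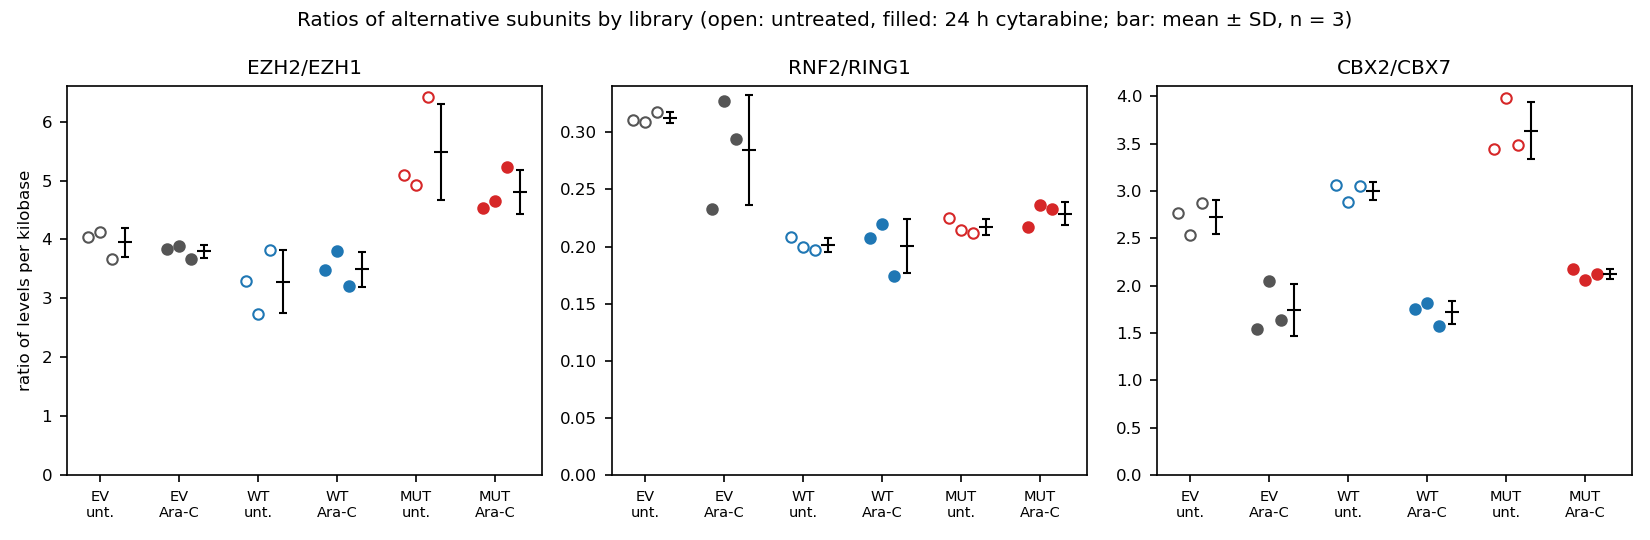
Ratio of levels per kilobase (vertical axes, from 0) of EZH2 to EZH1, RNF2 to RING1 and CBX2 to CBX7 in each library; open points untreated, filled points treated, bars mean ± SD of 3. The CBX2 to CBX7 ratio is lower in treated libraries of every line, while the EZH2 to EZH1 ratio is set apart by line, with MUT at 4.53 to 6.42.

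Whether the lines responded differently was tested as the difference of the cytarabine effects. No member passed for MUT against EV, where 0.214% of all tested genes passed, or for WT against EV, where 0.285% passed. At an unadjusted p under 0.05 these 2 tests had 4 and 2 members in edgeR, beside 15.8% and 9.96% of all tested genes, and DESeq2 passed 0 in both. For MUT against WT 1.00% of all genes passed and 1 member, BMI1, was among them. The fall of BMI1 was smaller in MUT than in WT by 0.39 on the log2 scale (SE 0.08, adjusted p 0.0306, edgeR), and the MUT values, each treated library against its line's untreated mean, did not overlap those of WT. The call was lost with the authors' scaling factors, without the filter on low counts, in a fit restricted to the groups compared, and in 12 of 18 fits that left out 1 library, namely each WT, treated MUT or untreated EV library. Over all 18 the adjusted p ran from 0.0113 to 0.09997. CBX7, with a rise that was larger in MUT than in EV by 0.34 (SE 0.12), had an adjusted p of 0.180 in the edgeR test.

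Between the lines without drug, individual subunits differed and none differed in all comparisons. The 3 comparisons share their groups and are not independent. MUT against EV had 5 members past the threshold, where 19.9% of all tested genes passed. Of these 2 were higher, as were 9.88% of all genes, and 3 lower, as were 10.0%. MUT against WT had 4, where 21.2% passed, with 2 higher (11.7% of all genes) and 2 lower (9.54%). WT against EV had 4, where 11.7% passed, with 2 higher (4.30%) and 2 lower (7.36%). The median log2 fold change of the members was 0.04, -0.01 and -0.06 in these comparisons. After cytarabine 2 members differed between MUT and EV, 2 between MUT and WT and 3 between WT and EV, where 14.0%, 19.8% and 16.5% of all tested genes passed.

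EZH2 set the WT line apart. Its untreated WT libraries, at 21.6 to 23.9 CPM, lay below every untreated EV and MUT library, at 28.1 to 34.9 CPM. WT against EV was -0.45 on the log2 scale (SE 0.10, adjusted p 0.00523) and MUT was higher than WT by 0.50 (SE 0.10, adjusted p 0.00146) in edgeR, whereas MUT against EV was 0.05 (SE 0.10). After cytarabine the values were -0.32 (SE 0.10, adjusted p 0.0373), 0.52 (SE 0.10, adjusted p 0.00107) and 0.20 (SE 0.10, adjusted p 0.200). Each call held in every fit without 1 library except that of treated WT against EV, which 5 of 18 fits lost, at adjusted p of up to 0.191. The summed level of the epithelial markers also differed by line, without TMM factors. It was 488 to 551 counts per M in WT and 669.9 to 862 in EV and MUT, and its part in these values was not tested.

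JARID2 ran the other way. It was higher in WT than in EV, by 0.42 untreated (SE 0.11, adjusted p 0.0176) and 0.36 treated (SE 0.11, adjusted p 0.0346, edgeR), with all WT libraries above all EV libraries of the same treatment. Untreated MUT against untreated WT gave -0.33 (SE 0.11, adjusted p 0.0410). That call was lost in 8 of 18 fits that left out 1 library, with DESeq2 (adjusted p 0.0621), and with the authors' scaling factors (adjusted p 0.0519, edgeR). The value moved most without the low untreated MUT replicate 3, to -0.14 with an adjusted p of 0.248. Of the WT calls, 4 of 18 fits without 1 library lost the untreated value and 4 the treated value, at adjusted p of up to 0.0878 and 0.123.

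RNF2 set the EV line apart. Untreated EV libraries had 40.3 to 42.9 CPM, above every library of WT and MUT, and RNF2 was lower in WT, at a log2 ratio of -0.36 (SE 0.08, adjusted p 0.00413), and in MUT, at -0.42 (SE 0.08, adjusted p 0.000862, edgeR). After cytarabine it was lower by -0.30 in WT (SE 0.08, adjusted p 0.0113) and by -0.33 in MUT (SE 0.08, adjusted p 0.00812), while WT and MUT did not differ past the threshold under either condition. Without treated EV replicate 3 the treated MUT value was -0.27 with an adjusted p of 0.0624, and the treated WT call was lost in 3 of 18 fits, at adjusted p of up to 0.0769. RING1 was higher in untreated WT than in EV by 0.28 (SE 0.08, adjusted p 0.0335), a call lost in each of the 6 fits that left out a library of these groups, at adjusted p of up to 0.160.

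CBX2 set the MUT line apart. All MUT libraries, at 102 to 124 CPM, were above all EV and WT libraries, at 80.9 to 97.8 CPM. CBX2 was higher in MUT than in EV by 0.23 untreated (SE 0.07, adjusted p 0.0216) and 0.46 treated (SE 0.07, adjusted p 0.000166), and than in WT by 0.33 untreated (SE 0.07, adjusted p 0.00198) and 0.45 treated (SE 0.07, adjusted p 0.000104, edgeR). The untreated call against EV was lost without any of the 3 untreated EV libraries, at adjusted p of up to 0.0771, and the other 3 calls held in every fit without 1 library. In edgeR fits of only the 2 groups compared both untreated calls were lost. The values there were 0.23 against EV (adjusted p 0.183) and 0.32 against WT (adjusted p 0.0781).

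BMI1 was lower in untreated MUT than in EV, at a log2 ratio of -0.26 (SE 0.06, adjusted p 0.00496), and than in WT, at -0.29 (SE 0.06, adjusted p 0.00188, edgeR), with every untreated MUT library below every untreated EV and WT library. After cytarabine the values were -0.05 and 0.10 and did not pass. EED was higher in untreated MUT than in EV by 0.29 (SE 0.08, adjusted p 0.0115), a value of 0.23 with an adjusted p of 0.0745 without untreated EV replicate 2. EZH1 was lower in untreated MUT than in EV, at -0.41 (SE 0.13, adjusted p 0.0339), a call lost without untreated replicate 2 or 3 of either line, at adjusted p of up to 0.130. With the spread taken from all 18 libraries, SUZ12 and CBX7 passed in none of the 6 line comparisons. In fits of only the 2 groups compared, which take the spread from those groups alone, untreated MUT against EV had 1 member, RNF2, and 5.83% of all genes. Untreated MUT against WT had 1, EZH2, with 7.16% of all genes. In the same kind of fit untreated WT against EV had 6 members, with EED and CBX7 added, and 31.5% of all genes, and treated MUT against WT had 5 with 35.5%.

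**Figure D4:**
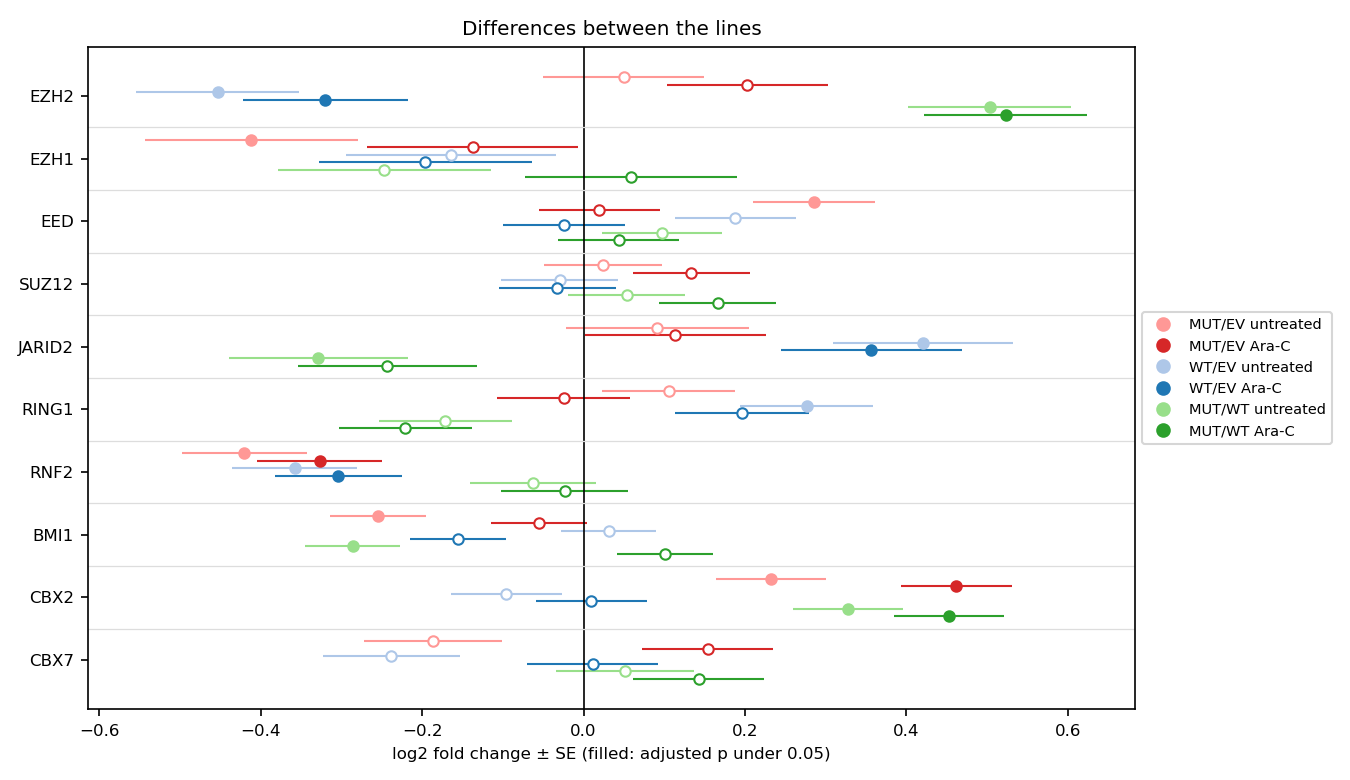
Log2 fold change between lines (horizontal axis; estimate ± SE from the edgeR fit, 3 libraries a group) for each member, untreated in pale and treated in full colours, with filled points past an adjusted p of 0.05. EZH2 is lower in WT than in EV and higher in MUT than in WT, RNF2 is lower in WT and MUT than in EV, and CBX2 is higher in MUT than in both.

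Other Polycomb genes were followed on lists written from general knowledge of the complexes, with earlier results of these data known. Of 10 PRC2 accessory genes, 9 were tested. With cytarabine 6 of them fell and 1 rose in EV, 5 fell and 1 rose in WT, while in MUT 2 fell and 2 rose, at medians of -0.24, -0.22 and -0.01. Among genes at least as abundant as EZH1, 37.7%, 35.5% and 39.6% fell and 22.2%, 23.9% and 27.1% rose, at medians of -0.11, -0.09 and -0.09. Among all tested genes 22.9%, 22.7% and 25.9% fell and 26.1%, 26.3% and 30.4% rose. PHF19, a Polycomb-like subunit that binds an active histone mark, fell most, with log2 changes of -0.86, -0.79 and -0.90 for EV, WT and MUT (SE 0.08 each). Its level was 86.9 ± 1.61 CPM (SD, n = 3) untreated and 47.9 ± 2.95 CPM treated in EV. RBBP7, a histone-binding core subunit, fell by 0.26, 0.27 and 0.36 (SE 0.06 each). AEBP2 and MTF2, accessory subunits of alternative PRC2 forms, fell in EV and WT, by 0.33 and 0.24 for AEBP2 and 0.24 and 0.22 for MTF2. PHF1, the third Polycomb-like subunit, rose by 0.43, 0.26 and 0.25 (SE 0.09 each). The differences of effects between lines had no PRC2 accessory gene past the threshold in edgeR.

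Of the 27 other PRC1 genes all were tested. The drug lowered 14 and raised 3 in EV, lowered 11 and raised 4 in WT, and lowered 10 and raised 4 in MUT. It lowered 22.9%, 22.7% and 25.9% of all tested genes and raised 26.1%, 26.3% and 30.4%. Of those at least as abundant as EZH1 it lowered 37.7%, 35.5% and 39.6% and raised 22.2%, 23.9% and 27.1%. USP7, a deubiquitinase found in variant PRC1, fell most, with log2 changes of -0.76, -0.73 and -0.96 (SE 0.09 each). PCGF1, the PCGF subunit of the BCOR complex, fell by 0.47, 0.60 and 0.66. L3MBTL2, a chromatin reader of the PCGF6 complex, fell by 0.67, 0.51 and 0.49, and WDR5, shared with other chromatin complexes, by 0.59, 0.56 and 0.49. BCORL1, a corepressor, rose by 0.54, 0.38 and 0.71. PCGF3 rose by 0.20, 0.26 and 0.30, and AUTS2, a partner of PCGF3 and PCGF5, rose by 0.32 in WT and 0.54 in MUT. The median over the list was -0.25 in EV, -0.21 in WT and -0.15 in MUT. Over all tested genes it was 0.05, 0.03 and 0.05, and over those at least as abundant as EZH1 -0.11, -0.09 and -0.09.

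Enzymes that remove the marks formed a list of 6. The scaffold ASXL1 and the deubiquitinase BAP1, which together take ubiquitin off H2A, fell in all lines, ASXL1 by 0.50, 0.49 and 0.31 and BAP1 by 0.31, 0.27 and 0.36 on the log2 scale. ASXL3 rose from very low levels, from 0.177 ± 0.0554 to 1.47 ± 0.133 CPM in EV. Counting both directions, 3 of the 6 passed in EV, 3 in WT and 5 in MUT, at list medians of -0.12, 0.02 and 0.19. Of all tested genes 49.1%, 49.0% and 56.3% passed, at medians of 0.05, 0.03 and 0.05. The demethylases KDM6B and KDM6A were lower in untreated MUT than in EV, by log2 fold changes of -0.52 (SE 0.13) and -0.35 (SE 0.10).

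**Figure D5:**
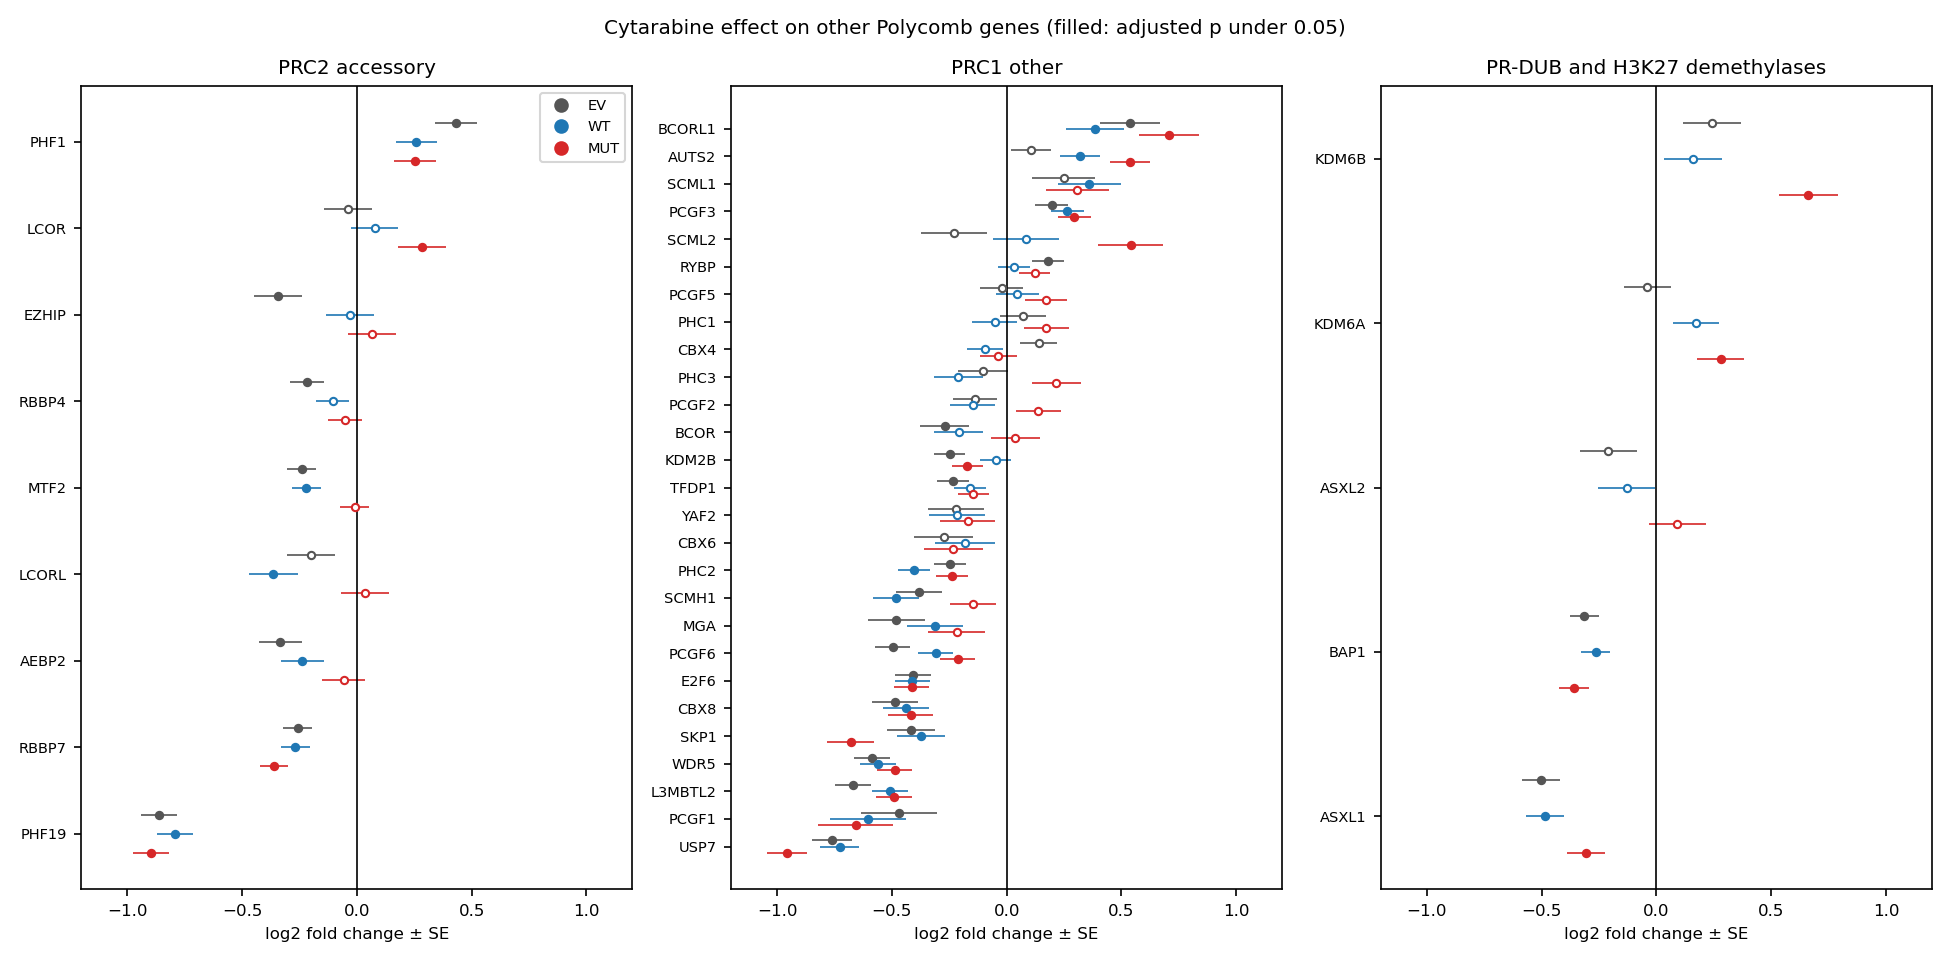
Log2 fold change of treated against untreated libraries (horizontal axes; estimate ± SE from the edgeR fit) in EV (grey), WT (blue) and MUT (red) for PRC2 accessory genes, other PRC1 genes and the enzymes that remove the marks, ordered by their mean; filled points passed an adjusted p of 0.05. PHF19, USP7 and ASXL1 lie at the lower end of their panels; ASXL3 is not drawn, as its values of 2.32 to 3.00 lie beyond the axis.

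EZHIP, listed under its older symbol CXorf67, encodes an inhibitor of PRC2 that most adult tissues lack. It was expressed in U2OS at 59.1 ± 2.51 RPKM (SD, n = 3) in untreated EV, above the level of EZH2 per kilobase in every library. The ratio of EZHIP to EZH2 was 5.05 ± 0.569 in untreated EV, 5.02 ± 0.288 in untreated WT and 3.29 ± 0.283 in untreated MUT. EZHIP was lower in untreated WT than in EV, at a log2 ratio of -0.46 (SE 0.10), and in untreated MUT, at -0.55 (SE 0.11), both past the threshold in edgeR. RBBP7 followed EZH2 across the lines, lower in untreated WT than in EV by -0.37 (SE 0.06) and higher in MUT than in WT by 0.41 (SE 0.06).

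Genes that Polycomb is known to silence in many tissues were listed as well, 50 in all, of which 35 were tested. Higher after cytarabine were 14 in EV, 12 in WT and 17 in MUT, and lower were 4, 2 and 3, at medians of 0.25, 0.27 and 0.37. Of all tested genes 26.1%, 26.3% and 30.4% were higher and 22.9%, 22.7% and 25.9% lower, at medians of 0.05, 0.03 and 0.05. Of those at least as abundant as EZH1, 22.2%, 23.9% and 27.1% were higher and 37.7%, 35.5% and 39.6% lower. Less abundant genes thus rose more often and fell less often than all tested genes. Many targets were less abundant than EZH1, with LHX2, PAX2 and GATA6 at medians of 2.66, 2.23 and 3.59 CPM. Shares among genes of such levels were not computed, and the part of abundance was not tested. LHX2, a homeobox factor, rose from 2.599 ± 0.258 to 5.33 ± 0.580 CPM in EV and by log2 fold changes of 1.03, 1.89 and 2.03 in EV, WT and MUT. PAX2 rose by 1.24, 1.25 and 1.14, GATA6 by 0.53, 0.91 and 1.55, and CDKN2B, a cell cycle inhibitor next to CDKN2A, by 0.82, 0.66 and 0.93. FOXC1 fell in all lines, by 0.43, 0.52 and 0.27, and WT1 and OLIG2 fell in EV and MUT. No target gene passed the test of a difference between lines in edgeR. Without drug 3 of the 35 were higher and 9 lower in WT than in EV, 5 higher and 8 lower in MUT than in EV, and 3 higher and 3 lower in MUT than in WT, at medians of -0.28, -0.13 and 0.11, against 0.0029, -0.0030 and 0.0047 for all tested genes. Of all tested genes 4.30% were higher and 7.36% lower in WT than in EV. The shares were 9.88% and 10.0% for MUT against EV and 11.7% and 9.54% for MUT against WT. GATA6 was lower in WT than in EV by -1.01 (SE 0.19) and in MUT by -2.10 (SE 0.21), and LHX2 by -1.89 (SE 0.23) and -1.49 (SE 0.22). The marks themselves were not measured, and no link between these genes and the subunits was tested.

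For each member the 2 genes with the most similar profile were found by Pearson's r of log2 CPM over the 18 libraries among 9050 genes of at least 4 log2 CPM. These values describe libraries that share treatment and line. BMI1 was closest to ERBIN (r = 0.97) and TMEM168 (0.95), RNF2 to COG8 (0.96) and CAV1 (0.95), and CBX7 to GAA (0.96) and LZTS2 (0.96). RING1 was closest to NIT2 (0.93) and HIST1H2BK (0.92), and CBX2 to MMP24 (0.92) and CDKN2C (0.92). Among PRC2 members EZH2 was closest to UPF3B (0.93) and RBBP7 (0.89), SUZ12 to NFE2L2 (0.93) and SPAST (0.92), EED to NDUFV2 (0.91) and COX17 (0.89), JARID2 to PLAGL2 (0.94) and TNC (0.92), and EZH1 to MOGS (0.85) and PBX2 (0.84), from 9051 genes. RBBP7 was the only gene of the Polycomb lists among these 20. Between members the highest r was 0.77, for RNF2 and BMI1, and the lowest -0.78, for BMI1 and CBX7.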

How the data were processed

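Total RNA of 18 libraries was extracted with a column kit and made into libraries with an NEBNext Ultra kit, per the labels' protocols. STAR 2.6.1d, CASAVA and the build hg38 are named in the submitters' processing notes; the counting tool and its use of strand are not given in the sources used here. The authors deposited estimated counts per gene, of which 70.4% were whole numbers, and a normalized signal for 19591 genes, which equals 1 plus a factor per library times the count. Positions overlapped GENCODE v44 genes for 99.99% of 19258 matched symbols. Counts were rounded and fitted with edgeR 4.0.16 in R 4.3.3 with TMM factors, filterByExpr and 1 coefficient for each of 6 groups over all 18 libraries. Quasi-likelihood tests gave p-values adjusted by Benjamini-Hochberg over 18226 genes, and the SE is the log2 fold change over the square root of F. CPM are scaled by TMM factors, and log2 CPM have a prior count of 2. Summed marker levels are counts per M of the library total, without TMM factors. The fit was tested on simulated data. Replicate pairs differed beyond sampling noise (chi-square per degree of freedom 2.50 to 51.5), so all were kept. The p-values rest on a spread between cultures estimated over all 6 groups, at a common biological coefficient of variation of 0.104. It is not the spread of the compared groups alone, which ran from 0.0397 in untreated WT to 0.214 in untreated MUT.

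All members were named whatever their values. From each list the genes named were up to 4 with the largest mean rise or fall among those past the threshold with 1 sign in at least 2 lines. For line comparisons up to 3 genes with no overlap were named. SUZ12P1, AL031846.2 and COMMD3-BMI1 were named for their overlap with members or likeness to them. The members and lists were chosen with earlier results of these data known. Alternatives were DESeq2 1.42.0, the authors' factors, other filters, a replicate block, fits of only the groups compared and fits without 1 library.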

Additional observations from a re-analysis of the deposited data

Results flagged for a closer look

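The difference between MUT and WT in the effect of cytarabine on BMI1 passed the test of that difference, at 0.39 on the log2 scale (SE 0.08, adjusted p 0.0306, quasi-likelihood test of edgeR, adjusted by Benjamini-Hochberg). BMI1 fell by 0.54 in WT and by 0.15 in MUT. With each treated library set against its line's untreated mean, all 3 MUT libraries lay above all 3 WT libraries. That measure leaves out the spread of the untreated libraries. The call was lost in 12 of 18 fits without 1 library. It was also lost with the authors' factors, without the filter on low counts and in fits of only the groups compared. Untreated MUT already had 183 ± 10.7 CPM (SD, n = 3) against 224 ± 5.53 CPM in untreated WT, while the treated levels were 165 ± 6.85 and 154 ± 3.88 CPM.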

How the results depend on the processing

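No value of a member past the threshold changed sign under any alternative. With a mean of at least 50 counts, 5 members and 57.4% of all genes passed for cytarabine in EV, without EZH1, RING1 and CBX2. With the authors' scaling factors 8 members and 56.7% of all genes passed in MUT, with EZH2, SUZ12 and JARID2 added. These factors lowered the median log2 fold change in MUT over all genes, from 0.05 to -0.03. That of the members went from -0.17 to -0.26. Of the genes passed, 46.6% were higher, against 54.0% with TMM factors. For the difference of MUT against WT, 0 members passed with the authors' factors (BMI1 0.36, adjusted p 0.0502, edgeR), without a filter (0.37, adjusted p 0.0628) and in fits of only the groups compared (0.39, adjusted p 0.0944). Those fits left 1 member for untreated MUT against EV (5.83% of all genes) and 1 for untreated MUT against WT (7.16%). They gave 5 for treated MUT against WT (35.5%), with SUZ12, JARID2 and RING1 added, and 6 for untreated WT against EV (31.5%), with EED and CBX7 added. The cause was not tested.

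Leaving out each library in turn gave 5 to 9 members for cytarabine in EV, 6 to 9 in WT and 4 to 7 in MUT. Differences of effects gave 0 to 0 (MUT against EV), 0 to 1 (MUT against WT) and 0 to 0 (WT against EV). Line comparisons gave, in the same order, 2 to 5, 3 to 4 and 2 to 5 untreated and 1 to 2, 2 to 4 and 0 to 4 treated. Shares of all tested genes were not computed for these fits, so the ranges have no background.

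The labels do not say that replicate numbers pair cultures. Deviations of libraries with the same number correlated between -0.18 and 0.33, and 4 of 27 pairs exceeded 0.1. Whether libraries with the same number share more than that number cannot be told from these values. With the replicate block 119 of 120 results of single members kept their call, and EZH1 in EV, at -0.32, had an adjusted p of 0.0584 (edgeR). The counts with the block were 7 in EV, 8 in WT and 5 in MUT, where 49.3%, 49.0% and 56.3% of all tested genes passed.

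Among list counts, other PRC1 genes past the threshold in untreated MUT against WT went from 3 to 7 with DESeq2, to 6 with the authors' factors and to 5 with the stricter filter, and in untreated MUT against EV from 4 to 7 with that filter. The share of all genes went from 21.2% to 23.8%, 22.1% and 29.3% in the first comparison, and from 19.9% to 28.0% in the second. DESeq2 passed 2 other PRC1 genes for the difference of MUT against EV and 1 Polycomb target gene for that of MUT against WT. It passed 3.04% and 4.41% of all genes in these tests. PRC2 accessory genes passed for cytarabine in MUT went from 4 to 2 with the authors' factors, while the share of all genes went from 56.3% to 56.7%. These estimated counts limit EZH1 most, with 154 to 277 counts a library.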
